A study of Rattus norvegicus with 9 samples.

Results

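The 6 genes described here encode the chloride cotransporters KCC2 (*Slc12a5*) and NKCC1 (*Slc12a2*) and the kinases that switch them, SPAK (*Stk39*), OSR1 (*Oxsr1*), WNK1 (*Wnk1*) and WNK3 (*Wnk3*). The set was proposed with earlier results of these data known, its rule takes the genes by symbol and uses no measured value, and each stood on 1 of the 30507 gene rows of the count table. All 6 passed the filter on low counts in every comparison. The libraries came from the spinal cord of wild-type female Sprague-Dawley rats, 8 weeks old when obtained, with 3 rats in each of 3 groups and 1 library per rat. The Sham group had a laminectomy only by the study's methods, although the labels list these rats as without treatment. The SCI group had a contusion of 150 kdyn at T10 and carried a plug on the neck with no electrode. The SCI + SCS group had the same contusion, an epidural electrode and stimulation at 10 kHz, so that the electrode and the current cannot be told apart in these libraries. All cords were taken at 35 days post-injury (dpi) as whole tissue of the T9-T11 segments, which mixes neurons, glia, vessels and scar.

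KCC2 and NKCC1 move chloride in opposite directions. KCC2, which in the central nervous system is made almost only by neurons, carries potassium and chloride out of the cell and so keeps chloride inside a mature neuron low enough for GABA and glycine to inhibit it. NKCC1 carries sodium, potassium and chloride in and is made by neurons, glia and endothelium. WNK kinases respond to chloride and cell volume and activate SPAK and OSR1, which phosphorylate both cotransporters, turning NKCC1 on and KCC2 off. Less KCC2 in the dorsal horn and around a cord injury is a known feature of neuropathic pain and spasticity. RNA levels show neither the phosphorylation nor the membrane position of these proteins.

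The genes lie on 5 chromosomes at the positions given in the files, for which the labels name the build mRatBN7.2. *Slc12a5* (ENSRNOG00000018111) spans chr3:153696517-153734189 on the + strand, and *Stk39* (ENSRNOG00000024808) spans chr3:52913585-53179060 on the - strand. *Slc12a2* (ENSRNOG00000015971) is at chr18:51348302-51416440 on the + strand. *Oxsr1* (ENSRNOG00000013136) is at chr8:118972754-119062027 and *Wnk1* (ENSRNOG00000009956) at chr4:153128334-153253905, both on the - strand, and *Wnk3* (ENSRNOG00000002537) is at chrX:20157041-20296821 on the + strand. Rows of other genes overlap *Oxsr1*, *Wnk1* and *Wnk3* in position on the opposite strand, and they held at most 43, 6 and 6 counts in any library. As a share of the total counts of the gene itself, a row held at most 0.318% for *Oxsr1*, 0.0055% for *Wnk1* and 2.95% for *Wnk3*. Whether strand was used in counting is not given in the sources used here, so reads on these rows may be shared.

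The 250 bases before the start of 4 of the genes are printed to set the neuronal cotransporter beside the 3 genes whose levels moved most alike (*Slc12a2*, *Stk39* and *Oxsr1*). They are RefSeq sequences of the build GRCr8, which is not the build of the files, written 5′ to 3′ on the strand of the gene. Capitals mark matches, on either strand, to the GC box (GGGCGG) or the cAMP response element (CRE, TGACGTCA).
Slc12a5: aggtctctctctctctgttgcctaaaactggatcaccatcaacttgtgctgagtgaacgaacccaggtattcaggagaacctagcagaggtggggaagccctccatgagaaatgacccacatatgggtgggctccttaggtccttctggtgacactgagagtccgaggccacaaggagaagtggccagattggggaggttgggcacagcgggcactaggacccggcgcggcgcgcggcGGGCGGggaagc
Slc12a2: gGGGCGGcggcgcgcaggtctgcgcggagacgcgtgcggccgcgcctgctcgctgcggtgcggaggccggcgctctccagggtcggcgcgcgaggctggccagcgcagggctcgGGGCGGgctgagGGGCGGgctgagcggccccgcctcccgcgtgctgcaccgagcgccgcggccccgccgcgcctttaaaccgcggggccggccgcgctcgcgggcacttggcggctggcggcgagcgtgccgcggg
Stk39: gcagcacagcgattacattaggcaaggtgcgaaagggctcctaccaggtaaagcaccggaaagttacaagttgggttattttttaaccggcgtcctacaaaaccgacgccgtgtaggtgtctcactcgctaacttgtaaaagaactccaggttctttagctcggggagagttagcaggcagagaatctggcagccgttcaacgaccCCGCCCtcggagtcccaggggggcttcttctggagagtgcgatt
Oxsr1: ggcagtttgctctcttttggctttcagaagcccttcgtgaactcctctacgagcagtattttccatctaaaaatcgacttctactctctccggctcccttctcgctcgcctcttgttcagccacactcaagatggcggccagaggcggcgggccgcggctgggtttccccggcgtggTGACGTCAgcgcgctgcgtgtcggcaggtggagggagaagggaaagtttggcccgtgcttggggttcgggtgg
These windows are chr3:174115583-174115832 (+) for *Slc12a5*, chr18:53546083-53546332 (+) for *Slc12a2*, chr3:73586980-73587229 (-) for *Stk39* and chr8:127939751-127940000 (-) for *Oxsr1*. The window of *Slc12a2* was 83.2% G and C with 48 CpG pairs, against medians of 51.2% and 5 over 33469 rat windows of the same length. Those of *Slc12a5*, *Stk39* and *Oxsr1* were 59.2%, 53.2% and 60% G and C with 11, 15 and 20 CpG pairs. A GC box stood 3 times in the window of *Slc12a2* and 1 time each in those of *Slc12a5*, 12 bases before the start, and *Stk39*. GC boxes occurred in 30.47% of all windows. *Oxsr1* held no GC box but a CRE, 73 bases before its start, a motif found in 1.587% of windows. The EGR core (GCGNGGGCG), which can overlap a GC box, was in 4.291% of windows and in none of these 4, and the TATA box (TATAAA) was in 12.93% and likewise in none of the 4. None of these motifs stood in all 3 windows of the genes that moved alike, and a match is a string of letters and not a measured binding site.

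The libraries held between 62844376 and 88358570 counts on genes. Levels are given below as CPM (counts scaled to a common library size), normalized by the trimmed mean of M values (TMM) over the 9 libraries, or as FPKM, which also divides by gene length and is the scale on which the genes can be compared with each other. No pair of libraries held identical values. No batch was entered in the main fits, and whether all libraries were handled together was not tested. Neuron, oligodendrocyte and astrocyte markers were present in every library, as the tissue label implies. Skeletal muscle markers summed to 3213 and 832 CPM in SCI replicates 1 and 3 and to between 7.42 and 47.15 CPM in the other 7 libraries, so results of the SCI group are also given without those 2 libraries.

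In Sham cords the cotransporters stood at the top of the 6 genes. *Slc12a2* had a level of 43.83 ± 3.78 FPKM and *Slc12a5* of 40.88 ± 15.49 FPKM (SD, n = 3 here and in all values with ± below), and their libraries overlapped. *Oxsr1* followed at 28.97 ± 1.60 FPKM and overlapped *Slc12a5*, then *Stk39* at 24.66 ± 2.33 and *Wnk1* at 19.92 ± 2.10 FPKM, each apart from its neighbour. *Wnk3*, at 0.212 ± 0.0748 FPKM, was far below the rest. In the SCI group the order changed for *Slc12a5*, which at 9.32 ± 2.87 FPKM stood below *Slc12a2* (26.44 ± 1.87), *Wnk1* (17.93 ± 1.23), *Oxsr1* (17.56 ± 1.10) and *Stk39* (15.30 ± 0.880) and above *Wnk3* (0.0446 ± 0.0159). There the libraries of *Wnk1* and *Oxsr1* overlapped and all other neighbours were apart. In the SCI + SCS group *Slc12a2* was again highest (30.35 ± 1.43 FPKM). The next 4 genes, *Slc12a5* (20.73 ± 5.55), *Wnk1* (19.64 ± 0.861), *Oxsr1* (19.30 ± 2.68) and *Stk39* (17.86 ± 1.47), each overlapped the next in that order, and *Wnk3* (0.0563 ± 0.0145) was lowest.

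**Figure D1:**
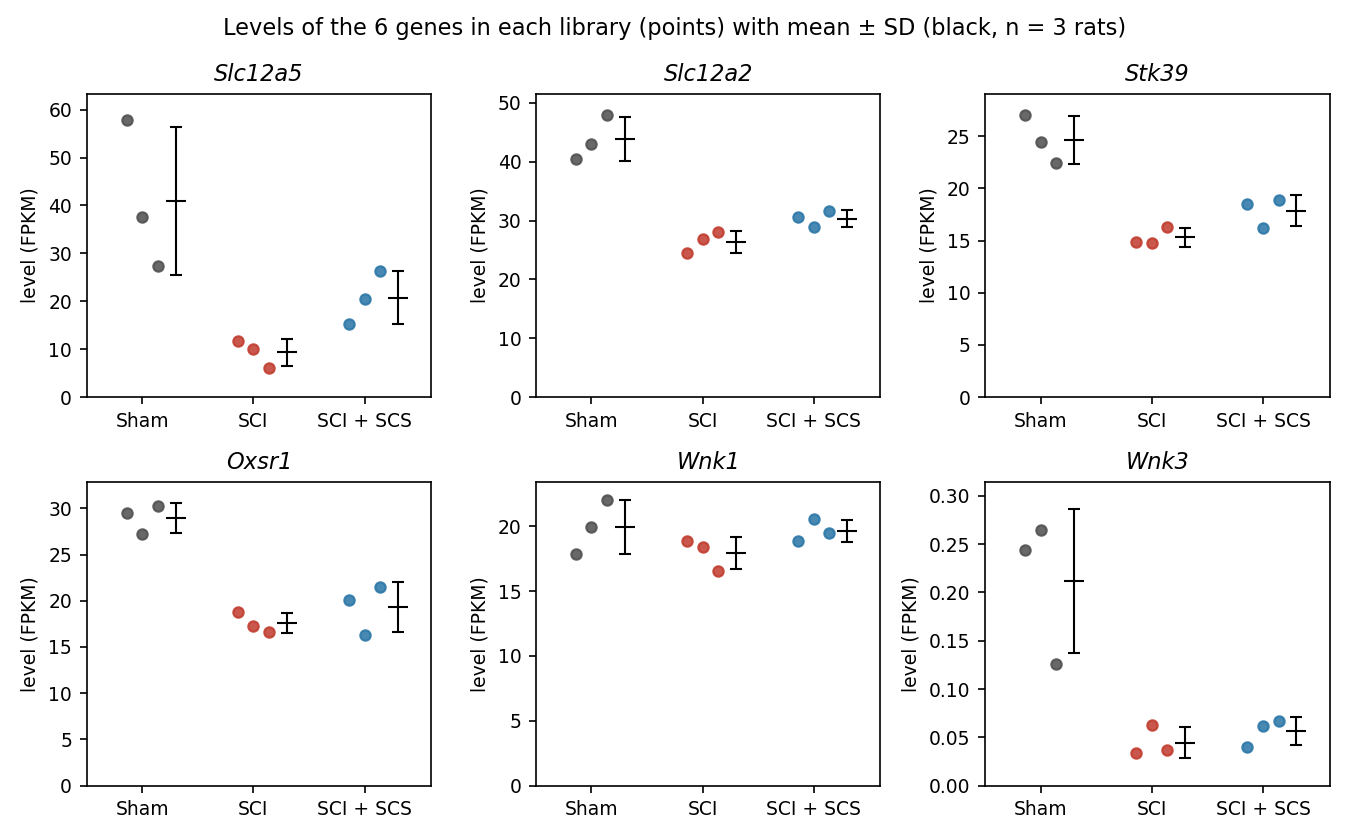
Level in FPKM (vertical axes, starting at 0) of each gene in the 9 libraries; points are libraries and black bars are group means ± SD (n = 3 rats). *Slc12a5* was lowest in the SCI group (6.18 to 11.81 FPKM, against 27.32 to 57.76 in Sham), *Wnk1* stayed between 16.54 and 22.02 FPKM in all 9 libraries, and *Wnk3* was at most 0.265 FPKM.

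The comparison of SCI with Sham asks what the contusion left changed at 35 dpi. Of the 6 genes, 5 were lower in the SCI group at an adjusted p under 0.05 and none was higher, and *Wnk1* did not pass. *Slc12a5* and *Wnk3* fell more than 4-fold, whereas *Slc12a2*, *Stk39* and *Oxsr1* each fell by 1.63-fold to 1.67-fold. Among all 17822 genes tested, 25.0% were called lower and 24.3% higher, and the median log2 fold change was 0.02 over all genes and -0.73 over these 6. With the study's added criterion of an absolute log2 fold change above 1, 2 of the 6 remained (*Slc12a5* and *Wnk3*), against 13.6% of all genes on the lower side.

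*Slc12a5* had levels of 390.5, 242.9 and 190.4 CPM in the Sham libraries and of 91.09, 65.92 and 40.96 CPM in the SCI libraries. The groups did not overlap, and Sham replicate 1 was the highest of all 9 libraries. The level in SCI was 4.22-fold lower (log2 fold change -2.08, SE 0.38, 95% interval -2.99 to -1.17, adjusted p = 0.0057 by edgeR), and 4.52% of all genes had a lower log2 fold change.

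*Slc12a2* was measured at 328.8, 334.1 and 384.1 CPM in Sham and at 216.8, 203.8 and 214.6 CPM in SCI. The SCI libraries were close to each other and all below the Sham libraries. The level was 1.67-fold lower (log2 fold change -0.74, SE 0.10, 95% interval -0.98 to -0.50, adjusted p = 0.0025). The fitted intervals of the 2 cotransporters did not meet, although the difference between the 2 genes was not itself tested.

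*Stk39*, the gene of SPAK, had 122.3, 105.8 and 99.88 CPM in Sham and 73.13, 62.23 and 69.15 CPM in SCI (log2 fold change -0.70, SE 0.12, adjusted p = 0.0046). *Oxsr1*, its close relative, had 169.5, 149.7 and 171.8 CPM in Sham and 118.1, 92.62 and 89.95 CPM in SCI (log2 fold change -0.73, SE 0.14, adjusted p = 0.0062). Neither gene had an SCI library inside the Sham range, and the FPKM ratio of *Stk39* to *Oxsr1* was 0.853 ± 0.0981 in Sham and 0.875 ± 0.0965 in SCI.

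*Wnk1*, the most widely expressed WNK kinase, was the exception. It had 208.6, 227.3 and 258.7 CPM in Sham and 238.9, 201.9 and 181.1 CPM in SCI, and the groups overlapped. The log2 fold change was -0.18 (SE 0.14, 95% interval -0.51 to 0.16, adjusted p = 0.33), which leaves room for a decrease of up to 0.51 on the log2 scale. *Wnk3*, a WNK kinase found in brain, had 2.506, 2.6 and 1.277 CPM in Sham and 0.393, 0.610 and 0.362 CPM in SCI, with no overlap. These levels rested on 111 to 229 counts per Sham library and 25 to 43 counts per SCI library. The level was 4.73-fold lower (log2 fold change -2.24, SE 0.41, 95% interval -3.21 to -1.27, adjusted p = 0.0056). In the SCI libraries the FPKM of *Wnk1* was 292 to 550 times that of *Wnk3*, against 73.05 to 175 times in Sham.

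All 5 genes called were lower in every SCI library than in any Sham library, a pattern seen in 31.1% of all genes tested. With SCI replicates 1 and 3, the libraries rich in muscle RNA, left out, the log2 fold changes were -2.07 for *Slc12a5*, -0.79 for *Slc12a2*, -0.83 for *Stk39*, -0.83 for *Oxsr1* and -1.81 for *Wnk3*. None of the 5 then passed (adjusted p = 0.0745, 0.0633, 0.0662, 0.0573 and 0.116, in the same order), with 1 SCI library left, assumed to vary like the Sham group, and 848 of 18645 genes called in all. In bulk tissue, fewer cells of a type and less RNA per cell cannot be told apart, and the cell types moved too. Oligodendrocyte markers (8 genes) summed to 59012 to 83454 CPM in Sham and 17792 to 33256 CPM in SCI, and 7 of the 8 were called lower. Microglia and macrophage markers (7 genes) summed to 211.5 to 343.3 CPM in Sham and 798.6 to 1056 CPM in SCI, with 4 of 7 called higher, and fibroblast collagens and proteoglycans (5 of 5 higher) to 354.6 to 1798 and 3209 to 4836 CPM. Over all genes tested, 25.0% were called lower and 24.3% higher. The part of the shifts in these cell type markers in the levels of the 6 genes was not tested.

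The comparison of SCI + SCS with SCI asks what stimulation changed in injured cords. None of the 6 genes passed the adjusted threshold in edgeR, where 1 gene of 17663 did (0.00566%). At an unadjusted p under 0.05, 1 of the 6 was higher (*Slc12a5*), against 13.3% of all genes. *Slc12a5* had 103, 136.1 and 173.8 CPM in the SCI + SCS group, against 91.09, 65.92 and 40.96 CPM in the SCI group. Every stimulated cord lay above every SCI cord, by a small margin between the lowest of the former and the highest of the latter. The level was 2.10-fold that of SCI (log2 fold change 1.07, SE 0.31, 95% interval 0.34 to 1.80, adjusted p = 0.113 by edgeR), and 96.8% of all genes had a lower log2 fold change. DESeq2 gave nearly the same log2 fold change (1.07) with an adjusted p of 0.0059 and called *Slc12a5*, in a comparison where it called 2595 of 16503 genes and edgeR 1. In the tests with limma on FPKM none of these 6 genes passed (*Wnk3* was under the filter in 2 of the 3 tests), where 1 to 31 genes passed in all. Without SCI replicates 1 and 3 the log2 fold change of *Slc12a5* was 1.06 (adjusted p = 0.254 by edgeR).

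For the other genes the fitted differences between SCI + SCS and SCI were smaller than that of *Slc12a5*, and none passed. *Slc12a2* had 236.5, 225.1 and 244.8 CPM with stimulation and did not overlap the SCI libraries, but its log2 fold change was 0.16 (SE 0.08, 95% interval -0.03 to 0.35, adjusted p = 0.27). With *Slc12a5*, 2 of the 6 genes had all stimulated libraries above all SCI libraries, against 15.6% of all genes. *Stk39* had 79.82, 70.08 and 81.20 CPM (log2 fold change 0.19, 95% interval -0.05 to 0.42), and *Oxsr1* had 110.1, 90.13 and 117.9 CPM (0.09, -0.26 to 0.44). *Wnk1* had 208.3, 230.8 and 215.7 CPM (0.08, -0.20 to 0.37). These 3 kinases overlapped the SCI group, and the intervals leave room for increases of up to 0.44, 0.42 and 0.37 on the log2 scale for *Oxsr1*, *Stk39* and *Wnk1*. *Wnk3* had 0.393, 0.624 and 0.657 CPM, from 28 to 44 counts, and its wide interval (0.30, -0.61 to 1.22) would hold changes in either direction. The fitted value was above 0 for 6 of 6 genes, with a median of 0.17 against -0.01 over all genes.

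The comparison of SCI + SCS with Sham asks what remained different in stimulated cords, and it uses the same Sham libraries as the comparison of SCI with Sham. Again 5 genes were lower and *Wnk1* did not pass, where 16.2% of all 17640 genes were called lower and 16.2% higher. The log2 fold changes were -0.99 for *Slc12a5* (SE 0.31, adjusted p = 0.0488), -0.56 for *Slc12a2* (SE 0.09, adjusted p = 0.0084), -0.50 for *Stk39* (SE 0.11, adjusted p = 0.0183), -0.62 for *Oxsr1* (SE 0.12, adjusted p = 0.0134) and -1.93 for *Wnk3* (SE 0.38, adjusted p = 0.0138). For *Wnk1* it was -0.08 (95% interval -0.32 to 0.16, adjusted p = 0.55). All 5 genes called had no SCI + SCS library inside the Sham range, as did 26.2% of all genes on the lower side. Only *Wnk3* also passed an absolute log2 fold change above 1, against 5.44% of genes on the lower side. The call of *Slc12a5* sat at the threshold and was lost in 11 of 16 alternatives, among them leaving out Sham replicate 1, the highest library, which gave a log2 fold change of -0.65 (adjusted p = 0.088). *Stk39* and *Wnk3* each lost their call in 4 of the 16. The count of 5 was 2 without Sham replicate 2, 2 without SCI + SCS replicate 1 and 3 without SCI + SCS replicate 2. The calls of *Slc12a2* and *Oxsr1* were kept in all 16.

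**Figure D2:**
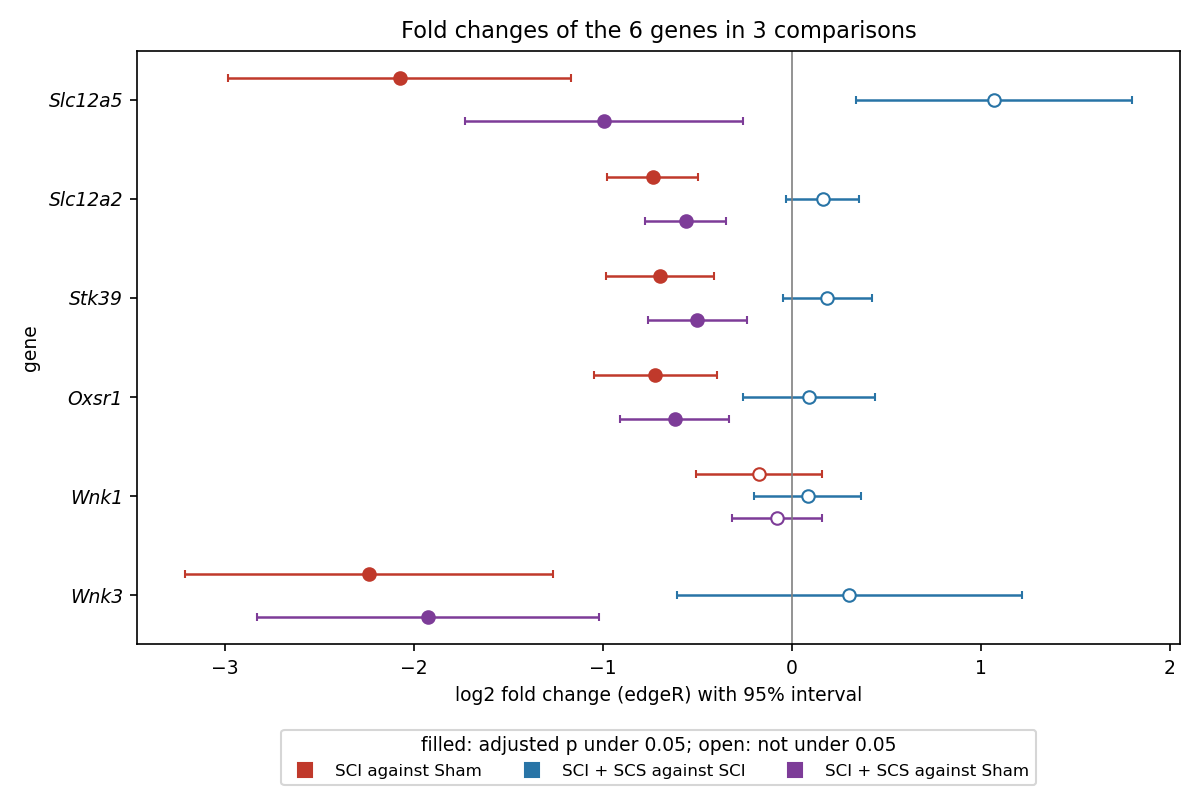
Log2 fold change (horizontal axis) of each gene (rows) in the 3 comparisons, with 95% intervals from edgeR; filled points passed an adjusted p of 0.05. The intervals of SCI against Sham lie below 0 for every gene but *Wnk1*, and in SCI + SCS against SCI only the interval of *Slc12a5* (0.34 to 1.80) lies wholly above 0, with an open point because its adjusted p was 0.113.

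Because KCC2 is a neuronal protein, *Slc12a5* was set beside 15 neuron markers in the same libraries, among them *Snap25* of the synapse, *Nefl* and *Tubb3* of the cytoskeleton and the neuronal enzyme gene *Uchl1*. All 15 markers were called lower in SCI than in Sham, against 25.0% of all genes. Their median log2 fold change was -2.16 (from -3.74 for *Map2* to -1.38 for *Tubb3*), against -2.08 for *Slc12a5*. In SCI + SCS against SCI none passed, all 15 fitted values were above 0, and their median was 0.93 against 1.07 for *Slc12a5*. In SCI + SCS against Sham 13 of 15 were called lower, against 16.2% of all genes, and their median was -1.22 against -0.99 for *Slc12a5*. Their summed level was 7138 to 14842 CPM in Sham, 1417 to 3831 CPM in SCI and 3647 to 5726 CPM in SCI + SCS.

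Within each library the log2 CPM of *Slc12a5* was then taken relative to the mean log2 CPM of the markers. The difference was -0.16, -0.46 and -0.23 in the Sham libraries, 0.05, -0.01 and 0.02 in the SCI libraries and 0.01, 0.09 and 0.05 in the SCI + SCS libraries. All 6 injured cords lay above the Sham cords, so that *Slc12a5* was not lower relative to the mean of these markers after injury. This does not hold for each marker. By fold change in SCI against Sham, 9 of the 15 fell more than *Slc12a5*, and others fell less, among them *Uchl1* (-1.47) and *Tubb3* (-1.38). The mean difference from the markers was 0.30 higher in SCI than in Sham and 0.33 higher in SCI + SCS than in Sham (two-sided exact permutation p = 0.1 for each, the smallest that 3 against 3 allows). SCI + SCS and SCI differed by 0.03 (exact permutation p = 0.5), less than the SD within either group (0.0404 and 0.0342). These values moved with the scale. On the log2(FPKM + 1) scale SCI differed from Sham by 0.10 (exact permutation p = 0.4) and SCI + SCS from SCI by 0.12 (exact permutation p = 0.1). With the 6 markers left after cytoskeleton and enzyme genes were taken out, the same differences in log2 CPM were 0.48 and -0.0803.

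**Figure D3:**
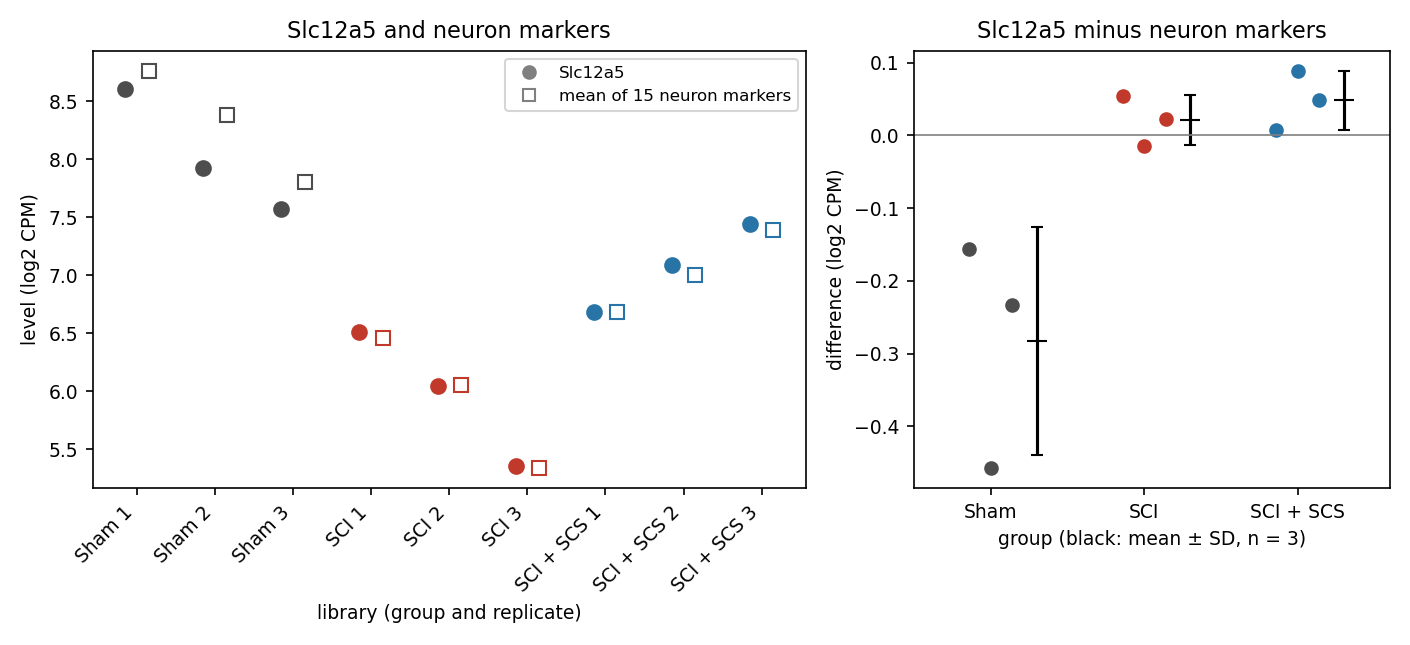
Left, log2 CPM of *Slc12a5* (filled circles) and the mean of 15 neuron markers (open squares) in each of the 9 libraries; right, the difference of the 2 in each library by group, with mean ± SD (n = 3). The circle lies under the square in all 3 Sham libraries and within 0.09 of it in the 6 injured ones.

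The genes with the most similar course to *Slc12a5* over the 9 libraries included *Grm4* (metabotropic glutamate receptor 4), *Rasgrf1*, *Sez6l2* and *Kcnc1* (the potassium channel Kv3.1). Their root mean square differences from it were 0.089 to 0.11 in centred log2 CPM, against a root mean square of 0.94 for *Slc12a5* itself, among 16279 genes. *Slc12a2* was followed most closely by *Pcyt2*, *Sccpdh*, *Rmdn3*, *Ubl3* and *Rps6ka5* (0.063 to 0.082), and was itself less variable (0.316). For *Stk39* they were *Bex3*, *Psmc1* and *Hars1* (0.051 to 0.062), for *Oxsr1* *Nek7*, *Glrx2* and *Hagh* (0.051 to 0.10), for *Wnk1* *Tbck*, *Commd8* and *Rnf5* (0.062 to 0.071), and for *Wnk3* *Pcdh17*, *Ppp1r9a* and *Ncoa7* (0.15 to 0.22). Among the members, *Slc12a2*, *Stk39* and *Oxsr1* lay 0.13 apart in each pairing, *Slc12a5* and *Wnk3* 0.53, and *Slc12a5* and *Slc12a2* 0.72.

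The RNA levels of the cotransporter genes were compared by the FPKM ratio of *Slc12a5* to *Slc12a2*, which does not measure chloride transport. It was 1.425, 0.8734 and 0.5696 in the Sham libraries, 0.4836, 0.3724 and 0.2198 in SCI and 0.5001, 0.7126 and 0.8331 in SCI + SCS. The group values were 0.956 ± 0.434, 0.359 ± 0.133 and 0.682 ± 0.169. The SCI cords were below all Sham and all SCI + SCS cords, while the SCI + SCS cords overlapped the Sham cords. No p is given for this ratio, which follows mostly the spread of *Slc12a5*, and the RNA of both genes in whole tissue comes from different mixes of cells.

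Some other members of the SLC12 family moved in the opposite direction to *Slc12a5*. Of 7 further genes, 3 rose in SCI compared with Sham and 1 fell. *Slc12a7* (KCC4), a cotransporter of many tissues, had 12.39, 21.32 and 30.02 CPM in Sham and 65.19, 110 and 103.7 CPM in SCI (log2 fold change 2.12, adjusted p = 0.0042). *Slc12a4* (KCC1), the housekeeping form, had 29.05, 43.34 and 53.53 CPM in Sham and 70.68, 79.33 and 78.02 CPM in SCI (0.84, adjusted p = 0.0171). *Slc12a8* also rose, from 26 to 61 counts per Sham library to 111 to 150 per SCI library (1.81, adjusted p = 0.0063). In SCI + SCS against SCI none of the 7 passed, with -0.81 for *Slc12a7* (adjusted p = 0.12). Compared with Sham, the SCI + SCS group had higher *Slc12a7* (1.32, adjusted p = 0.029) and *Slc12a8* (1.22, adjusted p = 0.034).

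As a share of the summed FPKM of *Slc12a5*, *Slc12a4* and *Slc12a7*, *Slc12a5* made up 63.64% to 87.92% in Sham, 15.78% to 34.39% in SCI and 36.87% to 57.07% in SCI + SCS, with no overlap between any groups. *Slc12a7* had 6.65% ± 3.62 in Sham, 35.52% ± 7.81 in SCI and 19.49% ± 6.66 in SCI + SCS, and *Slc12a4* had 18% ± 8.55, 40.51% ± 3.10 and 33.29% ± 4.90. The summed level of the 3 genes was 53.02 ± 11.6 FPKM in Sham, 39.8 ± 5.83 in SCI and 43.56 ± 2.43 in SCI + SCS, and its libraries overlapped between all groups. The fibroblast markers, whose sums are given above for Sham and SCI, were at 1964 to 3358 CPM in SCI + SCS, and which cells made the *Slc12a4* and *Slc12a7* RNA was not tested.

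**Figure D4:**
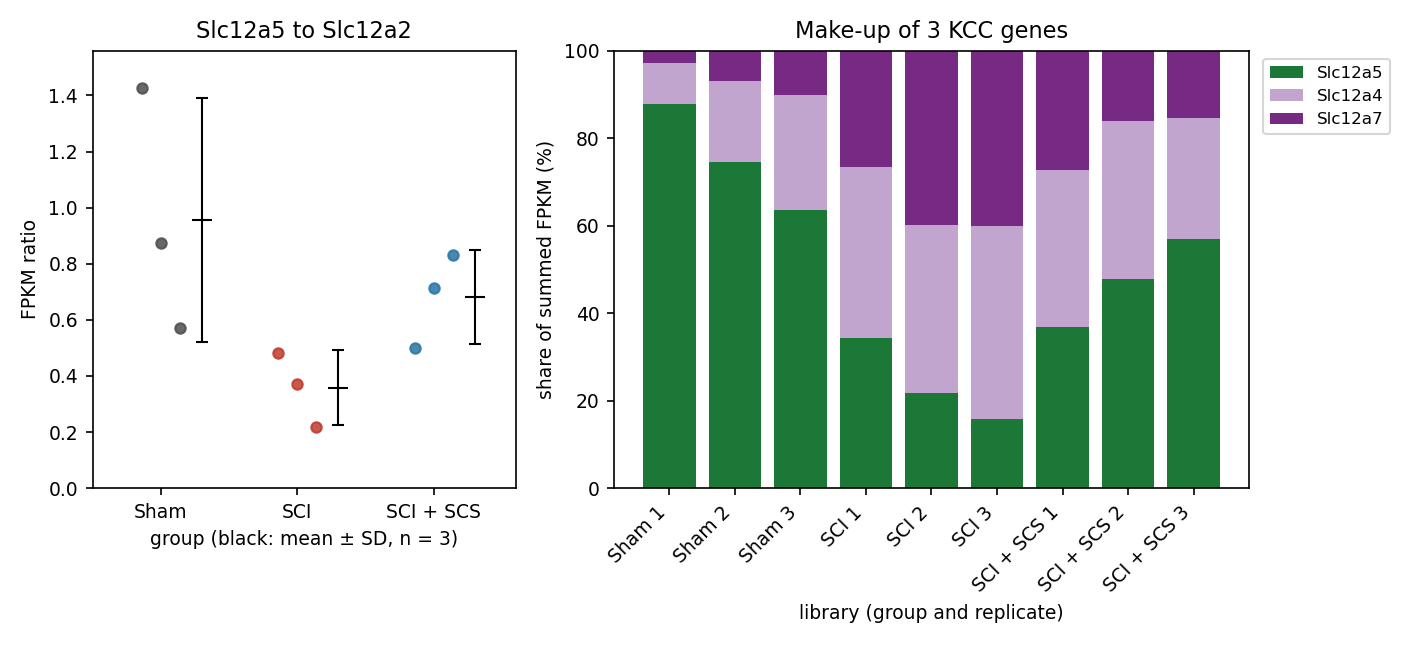
Left, FPKM ratio of *Slc12a5* to *Slc12a2* in each library by group with mean ± SD (n = 3); right, share of each of 3 KCC genes in their summed FPKM, 1 bar per library. *Slc12a5* (dark green) is at least 63.64% of every Sham bar and at most 34.39% of every SCI bar, where *Slc12a4* and *Slc12a7* (purple) make up the larger part.

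Among partners and regulators of the WNK, SPAK and OSR1 kinases, 11 genes were tested, 6 were lower in SCI than in Sham and none higher, where 25.0% of all genes were lower and 24.3% higher. *Cab39* (MO25), the scaffold that raises SPAK and OSR1 activity, fell from 146.9 to 188.6 CPM in Sham to 107.6 to 113.3 CPM in SCI (log2 fold change -0.62, adjusted p = 0.0067). *Cul3* (-0.65, adjusted p = 0.0028) and *Klhl2* (-0.64, adjusted p = 0.0146), parts of the ubiquitin ligase that removes WNK proteins, fell by like amounts, as did *Relt* (-0.74, adjusted p = 0.0149). *Wnk2*, a WNK kinase of neurons, fell from 35.77 to 50.97 CPM in Sham to 19.13 to 27.26 CPM in SCI (adjusted p = 0.0066). *Rell2*, a binding partner of OSR1, fell by 2.37 on the log2 scale (adjusted p = 0.0025). None of the 11 passed in SCI + SCS against SCI, and 5 of them (*Wnk2*, *Cab39*, *Klhl2*, *Cul3* and *Rell2*) were lower in SCI + SCS than in Sham, as were 16.2% of all genes. The median of this list in SCI against Sham was -0.64, against 0.02 over all genes. *Wnk4* was not analysed here.

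Of 15 genes known to act on KCC2, 8 were lower in SCI than in Sham and none was higher, where 25.0% of all genes were lower and 24.3% higher. They included *Gabbr1* (-1.05, adjusted p = 0.0051), a GABA-B receptor subunit that binds KCC2. *Bdnf*, a neurotrophin whose signal acts on KCC2, was also lower (-1.43, adjusted p = 0.0147). Its receptor *Ntrk2* (TrkB) had a log2 fold change of -0.02 in SCI against Sham. Compared with Sham, 1 of the 15 was higher in SCI + SCS, *Ntrk2* (0.55, adjusted p = 0.032), and 2 were lower, the protein kinase C gene *Prkcb* (-0.72, adjusted p = 0.025) and *Gabbr2*, the other GABA-B receptor subunit (-0.99, adjusted p = 0.039), against 16.2% of all genes in each direction. *Ckb* (creatine kinase B, which binds KCC2) and *Capn2* (calpain 2, of the protease family that cleaves KCC2) had values of 0.07 and -0.03 in SCI against Sham and did not pass. None of the 15 passed in SCI + SCS against SCI.

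The receptors whose current depends on the chloride gradient were mostly lower too. Of 14 GABA-A receptor subunits tested, 11 were lower in SCI than in Sham and 1 was higher (*Gabrp*, mean level over the 9 libraries 0.098 FPKM), with a median log2 fold change of -2.44, against 25.0% lower, 24.3% higher and a median of 0.02 over all genes. Subunits of high level among them were *Gabra5* (-1.92, adjusted p = 0.0041), *Gabrg1* (-2.38, adjusted p = 0.0012) and *Gabra2* (-2.09, adjusted p = 0.0026). All 4 glycine receptor subunits tested were lower, with *Glrb* at -1.66 (adjusted p = 0.0038) and *Glra1* at -3.34 (adjusted p = 0.0014). In SCI + SCS against SCI, 0 of 13 GABA-A and 0 of 3 glycine receptor subunits passed, with medians of 1.33 and 0.84, and 7 of 13 and 3 of 4 were lower in SCI + SCS than in Sham, against 16.2% of all genes. The summed GABA-A level was 140.7 to 243.1 CPM in Sham, 27.43 to 44.23 in SCI and 61.35 to 97.17 in SCI + SCS.

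Other chloride routes, and the sodium-potassium pump whose gradients drive the cotransporters, were counted in the same way. Of 24 chloride and bicarbonate exchangers and channels tested in SCI against Sham, 11 were lower and 4 higher, with a median of -0.52, where 25.0% of all genes were lower and 24.3% higher. *Clcn3*, an exchanger of intracellular vesicles, fell by 1.44 on the log2 scale (adjusted p = 0.00082), while *Ttyh1*, *Ttyh2* and *Clcn2* (-0.48, -0.43 and 0.00) did not pass. In SCI + SCS, 0 of 25 passed against SCI, and 6 were lower and 4 higher of 24 against Sham, where 16.2% of all genes were called in each direction. Of 12 pump genes, 3 were lower, among them *Atp1b1*, a beta subunit (-1.88, adjusted p = 0.0022), and 3 were higher, all of the FXYD regulators (*Fxyd1*, *Fxyd5* and *Fxyd6*), shares close to those of all genes. *Fxyd1* had a log2 fold change of 1.89 (adjusted p = 0.0017). *Atp1b2*, a beta subunit of glia, had a value of -0.26 and did not pass. None of the 12 passed in SCI + SCS against SCI, and 2 were lower and 2 higher in SCI + SCS than in Sham, again close to the shares of all genes (16.2% each way).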

How the data were processed

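mRNA was enriched with oligo(dT) from whole tissue of the T9-T11 cord of 9 rats, 3 per group. The authors deposited raw counts per gene, with no normalization applied, together with FPKM values, which allow for the length of a gene and the depth of its library. The FPKM of a gene per count varied between libraries beyond a common scale, and the reason is not given in the sources used here. The submitters' processing notes name fastp 0.23.2, HISAT2 2.2.1 and mRatBN7.2, and the counting program is not given in the sources used here. Groups and replicate numbers were taken from the labels.

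For each comparison the counts of its 6 libraries were fitted with edgeR 4.0.16 under R 4.3.3, by the quasi-likelihood test with TMM factors, filterByExpr and no covariates. P-values were adjusted by Benjamini-Hochberg over all genes tested, with a threshold of 0.05. The study's methods name DESeq2 with an added log2 fold change of 1. SE is the log2 fold change divided by the square root of F. Log2 CPM used a prior count of 2. Alternatives used DESeq2 1.42.0 and limma 3.58.1. The tests with limma were on log2(FPKM + 1) and log2(FPKM + 0.1), for a mean FPKM of at least 0.1. A further test with limma on log2(FPKM + 1) had no such limit. These FPKM scales understate changes of low genes. The tests were tested on simulated data.

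The set of 6 genes, the gene lists and the naming rule were chosen with earlier results of these data known. The rule names all 6 genes, the other SLC12 genes and kinase partners that passed (6 with the highest mean FPKM if more), up to 4 examples with the highest mean FPKM of the other lists, and the nearest genes in pattern. *Bdnf*, *Prkcb*, *Gabbr2*, *Map2*, *Fxyd5*, *Fxyd6* and *Gabrp* were named outside it after their values were seen. Some genes that the rule selects are not reported here. P-values measure the spread between these rats, and 3 against 3 cannot go below 0.1 in an exact permutation test. A level of 3 counts is 0.034 to 0.0477 CPM.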

Additional observations from a re-analysis of the deposited data

How the results depend on the processing

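In SCI against Sham the 5 calls held at the adjusted p threshold under all 16 of these settings (the replicate block, DESeq2, DESeq2 size factors, no filter, at least 10 counts in every library, all 9 libraries in one fit, muscle and adipocyte genes removed, 3 tests on FPKM and each library left out). The count was 2 of 6 with the log2 fold change criterion added and 0 of 6 without SCI replicates 1 and 3, a choice made after seeing the data that left 1 SCI library. In SCI + SCS against SCI, DESeq2 called 1 of 6 (2595 genes in all, against 1 in edgeR). The tests with limma called none of the 6 (1 to 31 genes in all), and *Wnk3* was left out in 2 of 3 tests. The log2 fold change of *Slc12a5* in SCI + SCS against SCI was 0.81 to 1.36 with a library left out (adjusted p 0.068 to 0.341 by edgeR). In SCI + SCS against Sham the count of 5 became 2 under the replicate block, 3 with limma on log2(FPKM + 1), 1 with the fold change criterion and 2 to 5 with a library left out. It was 2 without Sham replicate 2, 2 without SCI + SCS replicate 1 and 3 without SCI + SCS replicate 2. The calls lost under the block were those of *Slc12a5* (adjusted p = 0.159), *Stk39* (0.0659) and *Wnk3* (0.0706). The cause was not tested. Over all genes, the block gave 1259 calls there against 5710.

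The replicate block changed no call in the other comparisons (5 of 6 in SCI against Sham, 0 of 6 in SCI + SCS against SCI). Same-numbered libraries came from different rats, and the correlations of their deviations ranged from -0.22 to 0.146. With deviations taken from means of 3 libraries, these correlations cannot decide whether same-numbered rats were handled together. Directions turned for values near 0 or smaller than their SE. Relative to the short neuron list, *Slc12a5* in SCI + SCS against SCI was -0.0803 instead of 0.03. *Wnk1* had -0.013 in SCI + SCS against SCI without SCI replicate 3 and 0.0014 in SCI + SCS against Sham without Sham replicate 3, within leave-one-out ranges of -0.013 to 0.185 and -0.15 to 0.0014. *Wnk3* in SCI + SCS against SCI was -0.13 without SCI replicates 1 and 3, instead of 0.30 (SE 0.39) with all libraries. Depth limits *Wnk3*, at 25 to 44 counts per injured library.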
